A study of Mus musculus with 8 samples.

Results

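Wild-type mouse embryonic fibroblasts are described here through the 2 arrays titled as wild type, out of 8 arrays in all. A probe counted as above background when its detection p, the share of negative control beads at least as bright, was under 0.01 on both arrays, and 13745 of 45281 probes (30.4%) met this. Probes were then ordered by the mean of the background-corrected intensity on the 2 arrays. The study measured RNA of fibroblasts of 4 genotypes (Gadd45a-/-, Ing1-/-, both knockouts together and wild type, 2 arrays each) on Illumina mouse BeadArrays, and no comparison with the knockouts is made. The wild-type cells (WT) carry no engineered allele and received no treatment that the labels name. They came from C57BL/6 male embryos at stage E15.5 and were harvested at passage 3, when the cultures were confluent. Duplicates were collected per fibroblast line according to the design text, so both arrays may show 1 line, and their spread may be technical only.

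Fibroblasts are the connective tissue cells that secrete and remodel the extracellular matrix. They make fibrillar collagens, which are folded in the endoplasmic reticulum with dedicated chaperones and hydroxylases, trimmed and crosslinked outside the cell, and bound by proteoglycans and adhesive glycoproteins. On stiff culture plastic fibroblasts also build actin stress fibres and take on features of myofibroblasts, the contractile cells of wound repair. Cultures grown out of whole embryos descend from the mesenchyme of limb, body wall and other sites, and such cells are known to keep some of the positional Hox code of the place they came from.

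The arrays held 34885 probes with 1 gene symbol, 18 with several and 10378 with none. A gene takes its name from probes of the first kind, and the brightest detected probe stands for its gene. In this way 8179 of 19057 named genes (42.9%) were above background on both arrays, and 42.9% is the background for each list below. It makes no allowance for the number of probes that the genes of a list have. A further 583 genes passed at some probe on an array but at no probe on both, and 10295 passed on neither array. Of the 583, 193 passed on replicate 1 only and 381 on replicate 2 only, and the rest passed on each array at different probes. Replicate 1 had 14310 probes above background and replicate 2 had 14650. The mean of the negative controls was 136.61 on replicate 1 and 120.92 on replicate 2, with an SD of 19.58 and 13.75. Just inside the detection threshold, the 404 probes whose larger p lay between 0.005 and 0.01 had a median corrected signal of 66.5. Just outside it, the 1789 probes between 0.01 and 0.05 had a median of 50.4. Intensity depends on how well a probe binds as well as on the amount of RNA, so the order below is one of probe brightness and not of transcript abundance. A gene whose probes stay within background is called not above background, and not absent. In RNA of a whole culture, fewer cells of a type and less RNA per cell cannot be told apart. With 1 group there is no contrast to test, so no p-values for differences are given, and the number of arrays limits the precision.

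The brightest named genes came from the matrix, the cytoskeleton and the ribosome. Serpinh1, the collagen chaperone also called HSP47, ranked first with a signal of 46391 on replicate 1 and 36269 on replicate 2. Rps12, a protein of the small ribosomal subunit, read 48041 and 33138. Ccn2, the matrix-associated growth factor modulator long known as CTGF, read 43611 and 32820, and Bgn, the small proteoglycan biglycan, read 44098 and 30147. The alpha-tubulin Tuba1b read 41815 and 31103. All of these signals were higher on replicate 1, as were those of every gene in the plot of the 30 brightest, where the lowest mean was 32171 for the beta-tubulin Tubb5. The median ratio of replicate 1 to replicate 2 before normalization was 1.31 over all detected probes and 1.34 over the 100 brightest genes, so this offset is shared by dim and bright probes.

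**Figure D1:**
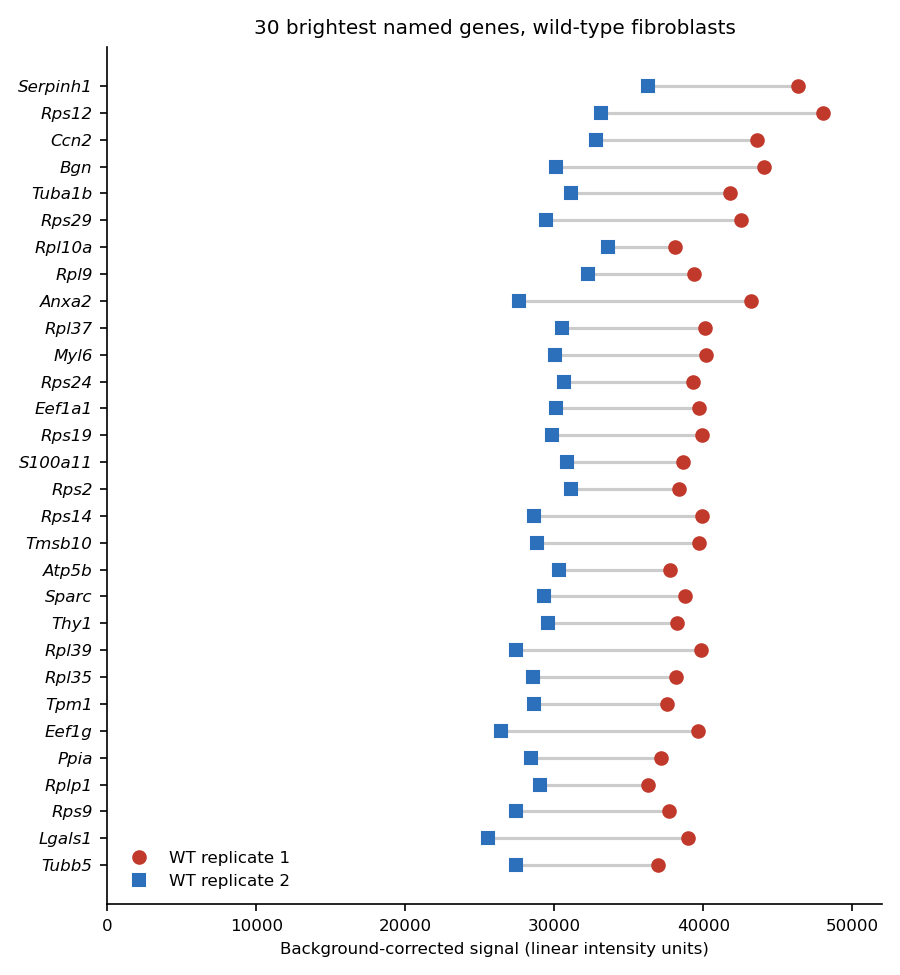
Background-corrected signal (linear intensity units, before normalization between arrays) of the 30 brightest named genes, 1 row per gene in order of the mean. Circles are WT replicate 1 and squares WT replicate 2, and all 30 genes lie to the right on replicate 1, from Serpinh1 at 46391 and 36269 to Tubb5 at 36933 and 27409.

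Other genes among the first 30 were Anxa2 (43237 and 27651), a calcium-dependent membrane-binding protein, Myl6 (40192 and 30063), a non-muscle myosin light chain, and Eef1a1 (39728 and 30135), which brings aminoacyl-tRNA to the ribosome. Sparc, a collagen-binding matrix protein, read 38750 and 29295. Thy1, a glycoprotein of the cell surface used to sort fibroblasts, read 38239 and 29581 at 1 of its 2 probes, while its other probe was within background. The mitochondrial ATP synthase subunit Atp5b read 37747 and 30308. Tropomyosin Tpm1, thymosin Tmsb10, the S100 protein S100a11, galectin Lgals1, cyclophilin Ppia and elongation factor subunit Eef1g were also in this group. The remaining members were the ribosomal protein genes Rps29, Rpl10a, Rpl9, Rpl37, Rps24, Rps19, Rps2, Rps14, Rpl39, Rpl35, Rplp1 and Rps9.

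The 100 brightest genes, with mean signals of at least 20279, held 17.6% of the summed signal of all detected genes. They included 18 proteins of the large and 14 of the small ribosomal subunit, 4 translation factors, 9 actin or actin-binding proteins and 2 tubulins. Matrix genes among them were the fibrillar collagens Col1a1 and Col5a1, the glycoproteins Ccn2, Sparc, Tnc and Fbln2, the proteoglycan Bgn, and the collagen processing genes Serpinh1 and Loxl1. A further 25 were in none of the lists, among them the mitochondrial transcripts CYTB and ND4, the cytokine Mif, and 5 histone H2A genes (H2ac7, H2ac10, H2ac13, H2ac20 and H2ac24) that were singled out after their values were seen. Clustered histone genes, tubulins, actins and ribosomal protein genes have near-identical copies or pseudogenes, so a probe may read several of them. Of the 40 brightest probes 20 had no gene symbol, so the order is one of named genes only.

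Promoters were read for the 100 brightest genes because the rule did not use sequence. The sequences are RefSeq's, on build GRCm38.p6, from 250 bases before to 50 bases after each annotated start, and 82 of the 98 protein-coding genes among the 100 (83.7%) had an entry. The letters TATAAA, as in the TATA box that positions RNA polymerase II, were searched on the sense strand from 45 to 11 bases before the start. They occurred in 5 of these 82 promoters (6.10%), in 1.14% of the promoters of all detected genes and in 2.44% of all 27025 promoters of the table. The letters CTTTC, part of the pyrimidine-rich start known from ribosomal protein genes, were searched on the sense strand from 10 bases before to 10 bases after the start, and cannot overlap the other window. They occurred in 8 of 82 promoters (9.76%, exact 95% binomial interval 4.31% to 18.3%, which covers counting error only), in 1.94% of all detected genes and in 2.45% of the table. On either strand the shares in the 100 brightest were 6.10% for TATAAA and 13.4% for CTTTC. A match is a description of letters in a window and not a site of binding.

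To compare them, windows of 45 bases before the annotated start and 15 from it on are given for the ribosomal protein genes of the 100 brightest with CTTTC and for 4 non-histone genes with TATAAA. Capitals mark the motif, and each sequence runs 5′ to 3′ on the strand of its gene. In the 5 ribosomal protein windows CTTTC is followed or preceded by further pyrimidines, and none has TATAAA. The TATAAA windows are those of the cytoskeletal, membrane, cyclophilin and peroxiredoxin genes Vim, Anxa2, Ppia and Prdx1. CTTTC was sought only within 10 bases of the start and TATAAA only from 45 to 11 bases before it. The search thus fixed where each motif could lie, and its position is not a result.
Rpl35, chr2:39005117-39005176, minus strand: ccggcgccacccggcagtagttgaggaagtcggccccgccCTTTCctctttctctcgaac
Rpl38, chr11:114668535-114668594, plus strand: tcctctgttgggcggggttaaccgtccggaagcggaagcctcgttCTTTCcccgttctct
Rplp2, chr7:141447606-141447665, plus strand: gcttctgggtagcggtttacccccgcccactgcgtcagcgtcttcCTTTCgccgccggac
Rpl28, chr7:4792920-4792979, plus strand: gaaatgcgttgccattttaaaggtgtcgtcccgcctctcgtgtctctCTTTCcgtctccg
Rps10, chr17:27635230-27635289, minus strand: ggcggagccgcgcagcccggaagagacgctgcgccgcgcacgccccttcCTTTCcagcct
Anxa2, chr9:69453638-69453697, plus strand: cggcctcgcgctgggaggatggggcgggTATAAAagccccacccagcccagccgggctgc
Ppia, chr11:6415822-6415881, plus strand: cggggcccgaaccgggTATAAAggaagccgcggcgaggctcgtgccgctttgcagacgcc
Vim, chr2:13574266-13574325, plus strand: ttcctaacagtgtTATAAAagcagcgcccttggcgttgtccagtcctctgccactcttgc
Prdx1, chr4:116685554-116685613, plus strand: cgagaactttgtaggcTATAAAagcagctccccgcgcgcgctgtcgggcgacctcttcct

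Over all detected ribosomal protein genes with a promoter entry, CTTTC occurred in 6 of 42 (14.3%) and TATAAA in 0 of 42. Leaving the ribosomal proteins out of the 100 brightest left CTTTC in 3 of 55 promoters (5.45%) and TATAAA in 5 of 55 (9.09%). The median GC content of the 300 bases was 60.3% in the 100 brightest and 61.3% in all detected genes. For genes that were not above background only 79.7% had a promoter entry, under the 80% set for such a check, so a comparison with them is void.

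Ribosomal proteins were the brightest family as well as the largest block of bright genes. Of the small subunit 19 of 22 measured members were above background, with a median percentile of 0.575 in the order of 8179 genes, where a low percentile is bright. Of the large subunit 31 of 34 were above background, with a median percentile of 0.77. Rpl14 and Rpsa passed on 1 array only, and Rps20, Rps23, Rpl6 and Rpl17 on neither. These 6, singled out after their values were seen, encode core proteins of the ribosome. Rps20 read 14.1 and 17.9 and Rpl6 read 13.6 and 9.03, so a probe within background is no sign that its gene is silent. Translation factors were above background in 30 of 34, led by Eef1a1, Eef1g, the initiation helicase Eif4a1 (28586 and 21332) and the initiation factor subunit Eif3f (25070 and 18181).

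Actin and actin-binding proteins were above background in 39 of 42, with a median percentile of 5.66, and 25 of the 39 lay among the 817 brightest of the 8179 genes. The brightest were Myl6, Tmsb10, Tpm1 and Acta2, the smooth muscle actin that marks myofibroblasts. Acta2 read 37799 and 25772, and 4 of its 6 probes were above background on both arrays. Its 4 bright probes read between 31389 and 37799 on replicate 1 and between 21997 and 25972 on replicate 2, while another was at the threshold and the last was within background. Actb, cytoplasmic beta-actin, had 3 of 5 probes above background, with 35684 and 24644 at the brightest and 1160 and 1938 at the dimmest of them. Tubulins were above background in 9 of 15, with Tuba1b, Tubb5, Tuba1a and Tubb2b at the top. Among intermediate filament genes of mesenchyme 6 of 7 passed, led by vimentin (Vim, 30155 and 18889) and the nuclear lamin gene Lmna (13542 and 9509).

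**Figure D2:**
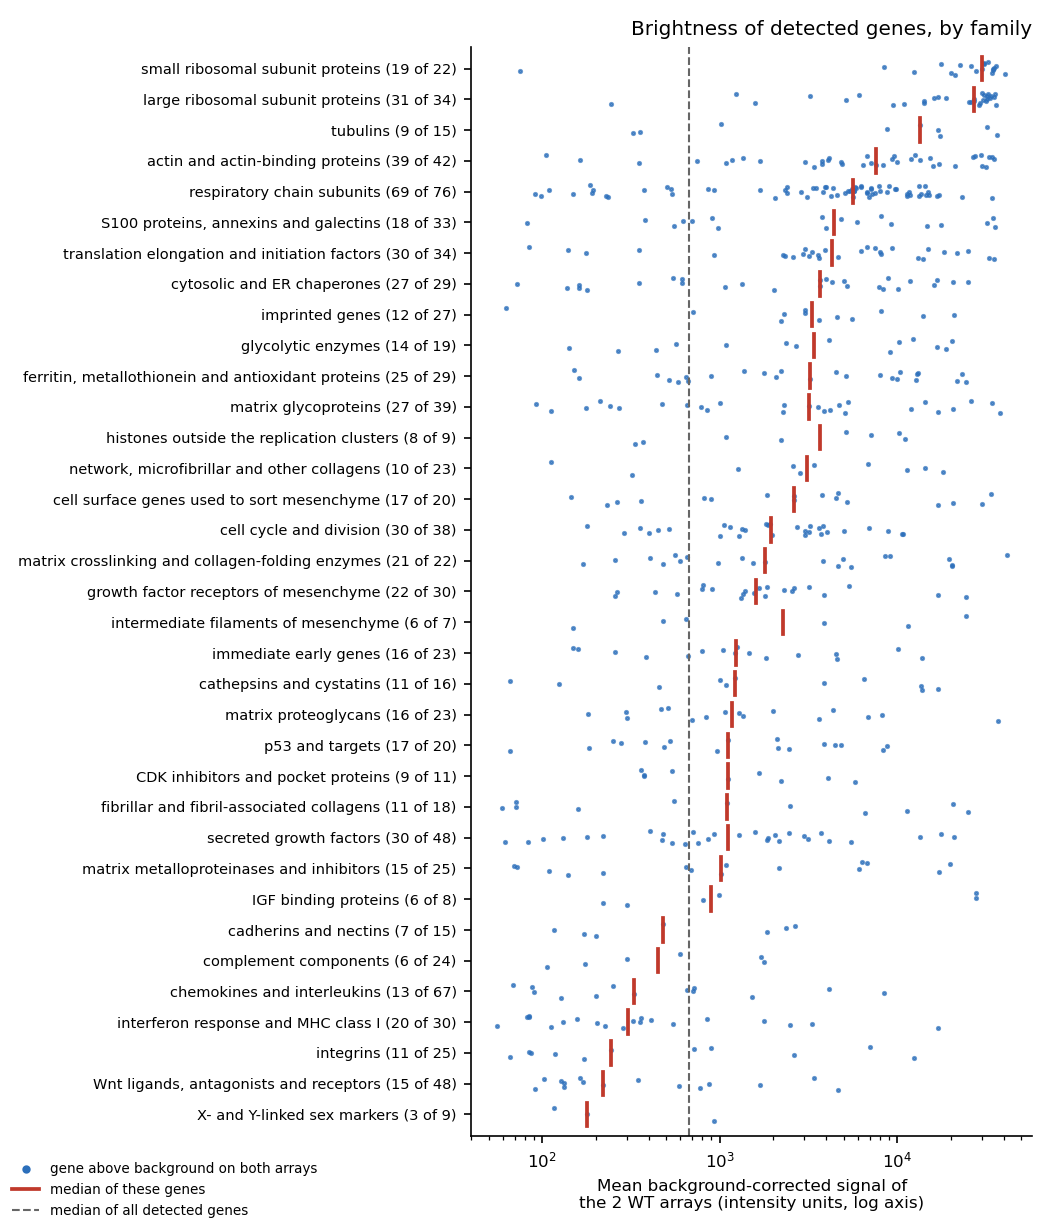
Mean background-corrected signal of the 2 WT arrays (intensity units, log axis) for each detected gene of 35 families, with the number above background and the number measured beside each name. Red bars are family medians over detected genes and the dashed line is the median of all detected genes, 670.4, and ribosomal proteins, tubulins and actin-binding proteins stand highest, Wnt genes, integrins and sex markers lowest.

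The collagen machinery was above background almost throughout. Of the collagen-folding and crosslinking enzymes 21 of 22 were detected, and the last, P3h2, passed on 1 array. After Serpinh1 the brightest were the crosslinking oxidases Loxl1 (23566 and 16992) and Lox (23823 and 16693), and P4hb (22229 and 16990), a subunit of collagen prolyl hydroxylase. Fibrillar and fibril-associated collagens were detected in 11 of 18, led by Col1a1 (28500 and 21893), Col5a1 (24225 and 17234), Col1a2 (10248 and 12413) and Col16a1 (7748 and 5473). Col1a2 is the partner chain of Col1a1 in the type I trimer. Col3a1, chosen after its values were seen, read 2362 and 2633. After normalization the log2 difference of replicate 1 minus replicate 2 was 0.00 for Col1a1, -0.66 for Col1a2 and -0.54 for Col3a1, all within 2-fold. The other collagens were detected in 10 of 23, near the background share, with the basement membrane chains Col4a1 (20365 and 15916) and Col4a2 (11724 and 11040) and the microfibrillar chain Col6a1 (16045 and 12709) brightest.

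Matrix glycoproteins were detected in 27 of 39 and proteoglycans in 16 of 23. Tnc, the tenascin of remodelling tissue, read 30266 and 21590, and all 7 of its probes were above background. Fbln2, a fibulin of elastic and basement membrane matrix, read 25201 and 15885. Below biglycan the brightest proteoglycans were the basement membrane proteoglycan Hspg2 (9822 and 6661), the glypican Gpc1 (7878 and 5841) and the syndecan Sdc3 (5069 and 3686). A few genes often linked with fibroblasts were dim, and they were picked after their values were seen. Periostin (Postn) read 97.3 and 88.7, elastin (Eln) 149 and 75.6 and lumican (Lum) 242 and 120.

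Among 25 metalloproteinases and inhibitors 15 were detected. The inhibitor Timp1 (23161 and 16748) and the membrane-anchored collagenase Mmp14 (20756 and 13772) were brightest, followed by the inhibitors Timp2 (6717 and 6872) and Timp3 (7334 and 5414). Of cathepsins and cystatins 11 of 16 were detected, led by the inhibitors Cstb (19672 and 14260) and Cst3 (15998 and 11451) and the lysosomal proteases Ctsb (14307 and 13071) and Ctsk (7063 and 5891). Of 8 IGF binding proteins 6 were detected, and Igfbp7 (32089 and 23784, at 1 of 5 probes) and Igfbp5 (31085 and 24631, at all 3) were far brighter than the rest, whose means lay between 219 for Igfbp3 and 991 for Igfbp6.

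Energy and stress-defence genes were broadly detected. Respiratory chain and ATP synthase subunits passed in 69 of 76, with a median percentile of 8.18, and chaperones in 27 of 29. The cytosolic chaperone Hspa8 (28001 and 22220) and the mitochondrial chaperone Hspa9 (24209 and 16914) led the chaperones. Of the 19 glycolytic genes 14 were detected, led by Pkm (23271 and 17367), Gapdh (20518 and 17036) and Ldha (18905 and 14703). Ferritin, metallothionein and antioxidant genes passed in 25 of 29, led by the ferritin chains Fth1 (27736 and 21148) and Ftl1 (22405 and 20932) and the peroxiredoxin Prdx1 (26524 and 19978).

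Of the 12 lists of transcription factors, those of mesenchyme and of fat formation had the highest shares above background, with 35 of 57 (61.4%) and 6 of 10 (60%). When a factor had to be above background at most of its probes, 20 of 57 mesenchymal and 2 of 10 adipogenic factors remained, against 28.9% of all named genes, so that the adipogenic share fell below the share of all genes. The brightest member of the mesenchymal list was Egr1, an immediate early factor that growth factors switch on, with 16105 and 11595. Twist2, a basic helix-loop-helix factor of dermal and limb mesenchyme, read 10311 and 6776, and Twist1 read 1186 and 793. The E-protein Tcf4 read 6134 and 4363, and Tead1, which carries Yap and Taz to DNA, read 6060 and 4373. Snai2 (4934 and 3790), Prrx1 (4010 and 2691), Zeb2 (2825 and 1854) and Zeb1 (1637 and 1156), all well known in mesenchyme, were also above background and were named after their values were seen. Prrx1 had 5 of 6 probes above background, whereas Zeb2 had 1 of 5. Mkx and Barx1 passed on 1 array, and 20 factors passed on neither, among them Foxc1, Foxf1, Foxd1, Dlx5, Six2, Eya1 and Gli1.

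**Figure D3:**
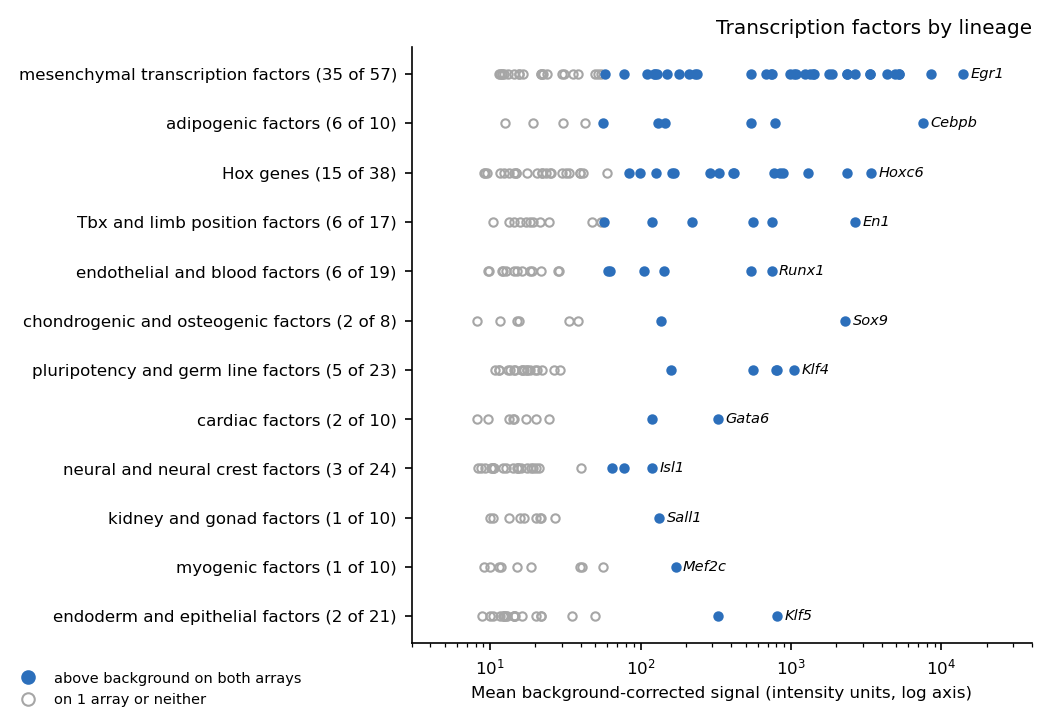
Mean background-corrected signal (intensity units, log axis) of transcription factors grouped by lineage, with the number above background on both WT arrays of the number measured. Filled points are above background on both arrays and open points on 1 array or neither, and the brightest gene of each row is named. The mesenchymal row reaches highest, with Egr1, which is also in the immediate early list, at a mean of 13850.

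Positional genes were detected in part. Of 38 Hox genes 15 (39.5%) were above background, near the share of all genes. The brightest were Hoxc6 (3945 and 2841), Hoxc9 (2830 and 1904), Hoxb7 (1460 and 1122) and Hoxd8 (1012 and 751). Hox genes are numbered from the head end to the tail and limb tips. In the Hoxb cluster Hoxb2, Hoxb4, Hoxb5, Hoxb6, Hoxb7 and Hoxb9 were detected, and Hoxc10 (915 and 781) and Hoxd9 (81.1 and 85.8) were the last in numbering that passed in their clusters. The group 11, 12 and 13 genes that were measured, which pattern the distal limb and tail, were within background on both arrays except Hoxa13, which passed on replicate 2 with 69.5 and was at 49.4 on replicate 1. Of 17 Tbx and limb position factors 6 were detected. En1, which marks the ventral limb and part of the dermis, read 3224 and 2124. Shox2 (943 and 550), Tbx3 (739 and 371) and Tbx15 (286 and 153) followed. Tbx4, a hindlimb factor, read 66.3 and 48.2, next to the threshold, and Tbx5, of the forelimb, and Pitx1, of the hindlimb, were not above background.

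Factors of other lineages were mostly within background. Of 21 endoderm and epithelial factors 2 passed, Klf5 (942 and 684) and Gata6 (415 and 236), whereas Foxa1, Foxa2, Hnf4a, Cdx2, Trp63 and Grhl2 did not. The 3 of 24 neural and neural crest factors that passed were Isl1 (131 and 108), Sox10 (105 and 49.3) and Tfap2a (68.1 and 61.7). Of these Isl1 alone also passed at a detection p under 0.001 on both arrays. The only one of 10 myogenic factors to pass was Mef2c (198 and 143), at 1 of 5 probes, and Myod1, Myog, Myf5, Pax3 and Pax7 did not. Cardiac factors passed in 2 of 10 (Gata6 and Isl1) and kidney and gonad factors in 1 of 10 (Sall1, 175 and 90.9). Of the cartilage and bone factors 2 of 8 passed, with Sox9, the master factor of cartilage, at 2503 and 2096 and Trps1 at 149 and 125.

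Among the 6 detected adipogenic factors, Cebpb, which acts early when fibroblasts turn to fat, read 8192 and 6784, and Cebpd read 900 and 662. Pparg, the factor that commits cells to fat, read 163 and 128, and its partner Cebpa was not above background. Of 19 endothelial and blood factors 6 passed, led by Runx1 (956 and 532), Ebf1 (679 and 403) and Gata2 (159 and 125), while Tal1, Gata1, Spi1 and Erg did not. Of 23 pluripotency and germ line factors 5 passed, namely Klf4 (1118 and 982), Klf5, Klf2 (910 and 680), Tbx3 and Myc (207 and 111). The core factors of embryonic stem cells Pou5f1, Nanog and Sox2 were not above background.

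The label of the cells was set beside lists of markers. These lists were chosen with earlier results of these data known, so their shares are not an independent check of the label. Of 20 fibroblast markers 19 (95%) were above background, the exception being Pi16, and their median percentile was 13.4. Thy1, Col1a1, Vim and P4hb led, and the platelet-derived growth factor receptors Pdgfra (2807 and 2471) and Pdgfrb (1897 and 1821) were among them. Smooth muscle and myofibroblast markers passed in 10 of 12 (83.3%). Beside Acta2 these were led by Actg2 (17676 and 14311), Tpm2 (10043 and 9173) and Myl9 (11103 and 7583). Myh11 (166 and 159) and Des (166 and 135), markers of mature muscle, were dim, and Cnn1 and Synpo2 were not above background. The actin genes Acta2, Actg2 and Acta1 are close in sequence, and whether their probes tell them apart was not tested.

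**Figure D4:**
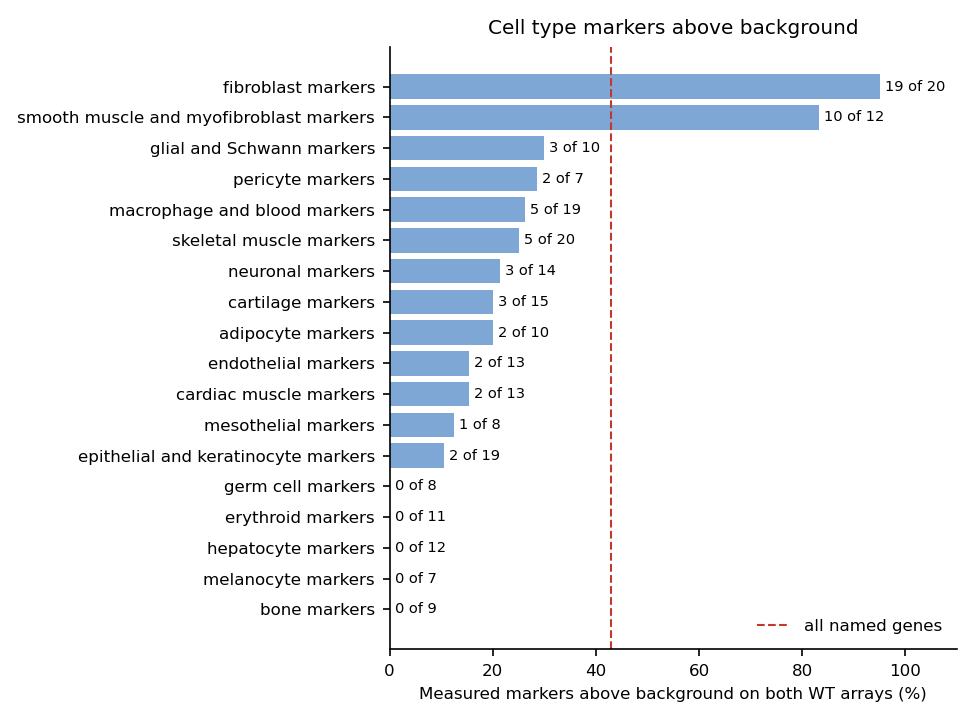
Share of measured cell type markers above background on both WT arrays (%), 1 bar per list, with the count beside each bar. The dashed line is the share of all named genes, 42.9%, and only the fibroblast and the smooth muscle and myofibroblast lists exceed it.

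With detection required on both arrays, each of the other 16 marker lists had a smaller share above background than the 42.9% of all genes, and the difference was not tested. The macrophage and blood list was above the share of all genes when detection on at least 1 array sufficed, with 9 of 19 (47.4%) against 46.0%. None of 11 erythroid, 12 hepatocyte, 9 bone, 7 melanocyte and 8 germ cell markers was above background on both arrays. Of 13 endothelial markers 2 passed, the VEGF receptor Flt1 (4601 and 3368, at 1 of 2 probes) and Egfl7 (570 and 493), whereas the defining markers Pecam1, Cdh5, Kdr, Tek and Tie1 did not. Of 19 macrophage and blood markers 5 passed, with a summed signal of 2210 on replicate 1 and 1874 on replicate 2. They were the lysozymes Lyz1 (1302 and 1163, at 1 of 3 probes) and Lyz2 (279 and 203), Laptm5 (378 and 292), Fcer1g (151 and 120) and Coro1a (99.4 and 95.3). A further 4 (C1qb, C1qc, Cd14 and Ctss) passed on 1 array, and 10 passed on neither, among them the pan-leukocyte gene Ptprc and the macrophage genes Csf1r and Adgre1.

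Epithelial markers passed in 2 of 19, Krt10 (503 and 432) and Cldn7 (82.4 and 52.3), and the defining genes Cdh1, Epcam, Krt5 and Krt14 did not. Krt8, Krt18, Pkp1 and Dsg2 passed on 1 array each. Neuronal markers passed in 3 of 14 (Gap43, Map2 and Stmn2) and glial markers in 3 of 10 (Ngfr, Mbp and Sox10), all with means from 77.2 to 312. Skeletal muscle markers passed in 5 of 20, with the actin Acta1 (4023 and 2749) far above the other 4, whose means lay between 70.05 for Mylpf and 150 for Des. Cartilage markers passed in 3 of 15 (Sox9, Col9a3 and Col2a1), and Acan, Comp and Matn1 did not. The pericyte markers Mcam (4566 and 4462) and Cspg4 (864 and 534), the cardiac markers Nppb and Myl4, the adipocyte markers Lpl (1840 and 1422) and Pparg, and the mesothelial marker Bnc1 (102 and 107) were the detected members of their lists of 7, 13, 10 and 8.

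The cultures were labelled male. Of 9 measured sex-linked markers 3 passed, and all 3 are Y-linked: Eif2s3y (852 and 1011), Kdm5d (186 and 169) and Uty (126 and 108). Xist, the RNA that silences an X chromosome in female cells, read 33.5 and 26.1 and was not above background at any of its 4 probes.

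Receptors and ligands were detected in part. Growth factor receptors passed in 22 of 30, led by the receptor tyrosine kinase Axl (27289 and 21337), the hyaluronan receptor Cd44 (20159 and 13876), the TGF-beta receptor Tgfbr2 (6183 and 4480) and the BMP receptor Bmpr2, with a mean of 3875. Above background at most of their probes were 7 of the 30 receptors, under the 28.9% of all genes by that count. Among secreted factors 30 of 48 passed. The fetal growth factor Igf2 (23742 and 18351), the heparin-binding factor Ptn (20132 and 15075) and the activin subunit Inhba (15518 and 11360) were brightest, and the procollagen protease Bmp1 was next, with a mean of 5517. Igf1, named after its value was seen, read 197 and 163. Wnt pathway genes passed in 15 of 48, below the share of all genes, with the antagonist-family member Dkk3 (4920 and 4368) and the ligand Wnt5a (3511 and 3300) brightest.

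Chemokines and interleukins passed in 13 of 67 (19.4%) and complement components in 6 of 24. The monocyte attractants Ccl7 (9542 and 7372) and Ccl2 (1517 and 1543) and the stromal chemokine Cxcl12 (4389 and 3840) were the brightest of the chemokines. Interferon response and MHC class I genes passed in 20 of 30 but were mostly dim, with a median percentile of 69.2. Only the MHC light chain B2m (18044 and 15828) lay among the 817 brightest of the 8179 genes. Integrins passed in 11 of 25, led by the collagen receptor subunit Itga11 (14317 and 10471) and Itgb5 (7788 and 6274). Imprinted genes passed in 12 of 27, near the background share, but those detected were bright, with a median percentile of 14.7 led by Igf2, the growth factor adaptor Grb10 (16365 and 11712), Ndn (9201 and 6926) and Dlk1 (6014 and 5150).

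Most listed genes of cell division were above background in these cultures, which were harvested confluent. Of 38 cell cycle genes 30 passed, led by the G1 cyclins Ccnd1 (11588 and 9901) and Ccnd2 (12542 and 8762), the centromeric histone Cenpa (10102 and 7729) and the replicative helicase subunit Mcm4 (8156 and 5781). Cyclin-dependent kinase inhibitors and pocket proteins passed in 9 of 11. Cdkn1a, the p53-induced inhibitor p21, read 6486 and 5044, Cdkn2b read 4440 and 3771, and Cdkn1c read 2838 and 1625. Cdkn2a, which encodes p16 and p19Arf and is known to build up as fibroblasts age in culture, read 1316 and 915 at the brightest of 3 detected probes and was named after its value was seen. The list of p53, its targets and the Gadd45 genes passed in 17 of 20. It was led by Gadd45g (9443 and 8152), Ccng1 (9178 and 7550), Phlda3 (5640 and 4013) and Mdm2 (5145 and 3769). Immediate early genes passed in 16 of 23, led by Egr1, Klf6 (11326 and 8950), Dusp1 (5602 and 3563) and Ier3, with a mean of 4540.

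The genes targeted elsewhere in the study were examined in the wild type as well. Gadd45a, a stress-induced gene, was above background at both of its probes, with 2578 and 1687 at the brighter and 1095 and 749 at the other. Ing1, which encodes a chromatin-binding growth inhibitor, had 1 probe, and it read 14.3 and 22.8 with detection p-values of 0.505 and 0.0769. This probe therefore gives no level for Ing1 in these cells.

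Probes of the same gene often gave different answers. Of 9172 genes with 2 or more probes, 1549 had all of them above background, 3563 had some and 4060 had none. Among 2813 genes with at least 2 detected probes the brightest exceeded the dimmest by a median of 2.9 times, and by more than 10 times in 481 (17.1%). Requiring most probes of a gene lowered the genes above background from 8179 to 5514 (28.9%), fibrillar and fibril-associated collagens to 7 of 18, secreted factors to 19 of 48, interferon response and MHC class I genes to 11 of 30, integrins to 5 of 25 and the sex-linked markers to 0 of 9. The share of genes detected was 31.0% with 1 probe, 48.6% with 2 and 64.5% with 3 or more. From their numbers of probes the lists would be expected at shares between 36.9% and 53.6%, against the shares of 95% for fibroblast markers and 0 for 5 marker lists.

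The 2 arrays were close to each other. Over the 13745 detected probes their raw log2 signals correlated with Pearson's r of 0.9883 and Spearman's rho of 0.984, across probes that are not independent replicates. After normalization the difference of replicate 1 minus replicate 2 had an SD of 0.308 log2 units. With the probes split into 5 equal groups by brightness, the SD was 0.376 in the dimmest, then 0.377, 0.309, 0.241, and 0.195 in the brightest. Past 2-fold, 69 probes (0.502%) were higher on replicate 1 and 38 (0.276%) on replicate 2. With median scaling in place of quantile normalization the split was 190 and 16. Counted by the brightest probe of each gene, 16 genes (0.196%) were higher on replicate 1 and 16 (0.196%) on replicate 2.

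**Figure D5:**
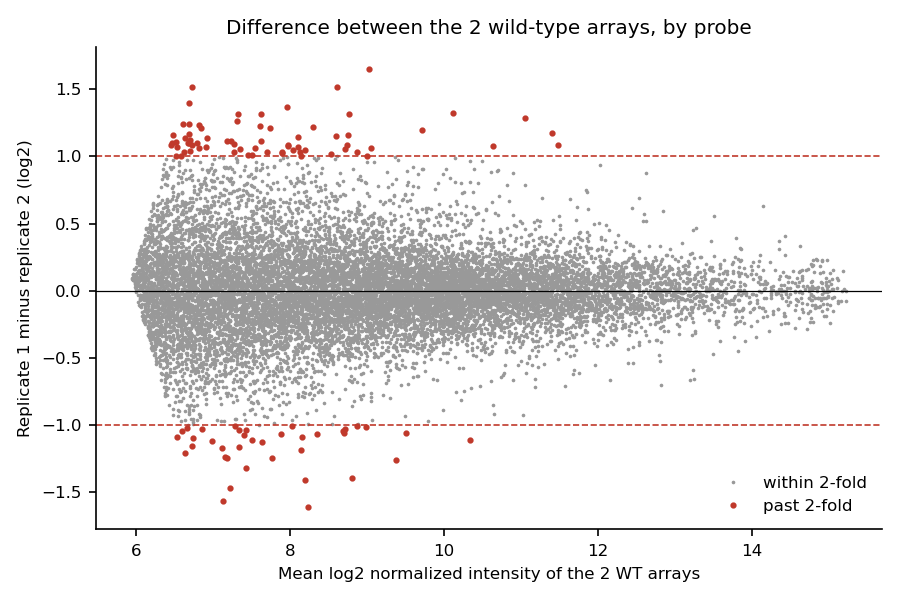
Log2 normalized intensity of WT replicate 1 minus WT replicate 2 (vertical axis) against the mean of both (horizontal axis), 1 point per probe above background on both arrays. Red points are the 107 probes past 2-fold, 69 above and 38 below 0, and the spread narrows from an SD of 0.376 in the dimmest of 5 equal groups to 0.195 in the brightest.

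The probe with the largest difference towards replicate 1 was that of Gsn, the actin-severing protein gelsolin, with 1214 on replicate 1 and 286 on replicate 2, a log2 difference of 1.65. The next were probes of Chtf8 (1.52), Ybx3 (1.51), Ing3 (1.40), Flot1 (1.37), Actn4 (1.32), Rangap1 (1.32), Fn1 (1.32), Ccdc80 (1.31) and Eef2 (1.29). Eef2, the translocation factor of the ribosome, was the one gene with 3 probes past 2-fold, with log2 differences of 1.29, 1.17 and 1.08. Its brightest probe read 5430 on replicate 1 and 1835 on replicate 2. The actin linker moesin (Msn, 5532 and 2001) and the initiation factor Eif4b (520 and 185) differed in the same direction, by 1.08 and 1.03. These 2 are named because they were the other listed genes past 2-fold that way at their brightest probe. The other detected probe of each went the opposite way, by -0.50 for Msn and -0.79 for Eif4b.

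Towards replicate 2 the largest differences were those of the mitochondrial transcript ND4L (215 and 528, a log2 difference of -1.61), the chaperonin subunit Cct5 (91.4 and 231, -1.56) and the RNA-binding protein Nono (101 and 237, -1.47). Hspa5, the main chaperone of the endoplasmic reticulum, followed with 225 and 480 (-1.41). Probes of Cd44 (-1.39), Morf4l1b (-1.32), Idi1 (-1.25), Idh3a (-1.25), Hsp90aa1 (-1.24) and Eif3a (-1.21) came next. Of the listed genes Pcna (127 and 232, -1.16), Txnrd1 (105 and 196, -1.17) and Cox7b (144 and 236, -1.04) were also past 2-fold this way. Each was so at its only detected probe, which was dim.

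Where a gene had another detected probe, most of these differences were not seen there. For Gsn, ND4L, Cct5, Nono and Hspa5, among the largest, no other probe was detected, so they could not be checked this way. Of the 90 named probes past 2-fold, 67 had another detected probe of their gene, and 5 of these had another past 2-fold in the same direction. These 5 were probes of Eef2 and Xpnpep1 only, counted for each other. The brightest other probe was within 1.5-fold in 60 of the 67, with a median absolute difference of 0.17 log2 units. It was also the brighter of the pair in 58. For Fn1 (fibronectin), for example, the probe that differed by 1.32 had a mean below that of the brightest, which read 15403 and 8460 and differed by 0.47. For Cd44 the brightest probe differed by 0.18, against -1.39 at the dimmer probe. Among 1984 genes with exactly 2 detected probes both probes differed in the same direction in 1072 (54.0%). Probes other than a gene's brightest were past 2-fold in 1.5% of cases, and the brightest probes in 0.391%.

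Some genes crossed the detection threshold between the arrays. The 5 with the largest difference were Rfng, above background on replicate 1 only (136 and 22), and Adam10 (25.3 and 92.4), Lrrc39 (19 and 71.8), Inpp5j (13.8 and 58) and Trip13 (48.6 and 132), above background on replicate 2 only.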

How the data were processed

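RNA of 8 fibroblast cultures, 2 of them wild type, was labelled as biotinylated cRNA and hybridised to Illumina mouse arrays, per the labels' protocols. GenomeStudio 2011.1 is named in the submitters' processing notes, with no role given. Per the file headers, the deposited table gives linear, non-normalized intensity and a detection p-value for each probe. A second table of the authors, of processed intensity, was used as an alternative only. It kept the rank order of each array (Spearman's rho 1), had medians of 8.872 and 8.8646 on the 2 wild-type arrays and 34.51% and 34.53% of values below 0. It looks linear and scaled between arrays, and its method and centring stay unknown.

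Brightness was computed with limma 3.58.1 in R 4.3.3 (nec, which is normexp with the negative controls' mean and SD taken from the detection p-values, offset 0, no normalization between arrays). The difference between arrays used neqc over all 8 arrays (offset 16, quantile, log2). The normalization was run on a simulated pair of arrays with known doublings, which does not check the differences found between the real arrays. Summaries used Python 3.11.15 and pandas 2.3.3. Symbols were updated through gene identifiers to the GRCm38.p6 gene table, and 34807 named probes matched. Named are the 30 brightest genes, up to 4 of the brightest detected members of each of 65 lists, undetected factors and markers, the 10 probes that differ most each way, 5 genes detected on 1 array, Gadd45a and Ing1. Other genes were named after their values were seen, dim list members among them. The members and lists were chosen with earlier results of these data known. No slide or scan entries were found in the tables, so batches could not be examined, and protein length was not analysed here. Alternatives covered the detection threshold, background, normalization, the probe that stands for a gene, the fold, and each array left out.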

Additional observations from a re-analysis of the deposited data

How the results depend on the processing

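Leaving out 1 array gave 14310 to 14650 detected probes (13745 with both), 8381 to 8569 genes (8179 with both), 95 to 96 of the 100 brightest genes and 34 of 65 lists above the share of all genes (35 with both). Of the 100 brightest genes 91 stayed under every alternative that kept the brightest probe, and 52 under all alternatives, since taking a gene's dimmest probe kept 55 and its median probe 73. The count of 107 probes past 2-fold between the arrays moved most. It was 206 with median scaling, 14 without background correction, 171 at a detection p under 0.05, 359 without a detection filter and 21 among probes brighter than the median. It was 960 at 1.5-fold and 2 at 3-fold. The median difference was -0.008 log2 units with quantile normalization and 0.147 with median scaling. Median scaling gave 190 probes higher on replicate 1 and 16 on replicate 2, or 92.2% towards replicate 1. With quantile normalization these were 69 and 38, or 64.5%. The share of bright promoters with CTTTC was 9.76%, and 9.88% by median probe. Under some setting 9 of 65 lists changed sides of the share of all genes. They were Hox genes, Tbx and limb position factors, adipogenic factors, growth factor receptors, integrins, cadherins and nectins, imprinted genes, the network and other collagens, and macrophage and blood markers. No paired analysis was possible because 1 group is described and no groups are compared. Signal over background limits the statements on dim probes.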
